A study of Caenorhabditis elegans with 16 samples.

Results

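The transcripts listed as ncRNA in the deposited small RNA count tables, apart from the RNase P and RNase MRP RNA genes *rpr-1* and *mrpr-1*, comprised 7949 genes of the 45510 genes counted in all. They were chosen by the class column of the tables alone, and reads on the transcript strand (sense) and on the opposite strand (antisense) were taken for each gene. The class holds no rRNA, tRNA, miRNA, snRNA, snoRNA or lincRNA row, since each of these has a class of its own. Of the 7949 genes, 644 had 0 reads on both strands in all 10 libraries, 622 had 50 or more antisense reads in at least 1 library and 410 had 50 or more sense reads.

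In *C. elegans*, Argonaute proteins carry short guide RNAs, and many of these guides are 22G-RNAs, which RNA-dependent RNA polymerases copy from a target transcript, so that they lie antisense to it. NRDE-3 and HRDE-1 are nuclear Argonautes of the soma and the germline, and WAGO-1 is a germline Argonaute that is mostly cytoplasmic. CDE-1 is a nucleotidyltransferase that adds uridines to the 3′ ends of RNAs, including siRNAs bound by the Argonaute CSR-1. Most members of the ncRNA class are short transcript models of no known function, many of them annotated from RNA sequencing and named only by their cosmid.

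In all, 5 pairs of libraries were compared, each of them 1 library of either genotype. Without replicates the spread between animals is unknown, and p-values are left out. Total small RNA came from *cde-1(tm936)* young adults and from N2 young adults. NRDE-3 was precipitated from *cde-1(tm936);GFP::NRDE-3* embryos and from GFP::NRDE-3 embryos, and also from animals labelled L3 that carried *eri-1(mg366)* beside the same 2 genotypes. The *eri-1* mutation, present in both L3 libraries, disrupts production of endogenous siRNAs that NRDE-3 normally binds. HRDE-1 came from *cde-1(tm936);GFP::HRDE-1* and GFP::HRDE-1 young adults, and WAGO-1 from *cde-1(tm936);GFP::WAGO-1* and GFP::WAGO-1 young adults. All animals were kept at 20 °C, on OP50 bacteria except for the L3 pair on HT115, and each tagged Argonaute was precipitated with anti-FLAG M2 antibody. A single *cde-1* allele was used throughout, and 1 library title prints tm939 where its genotype field has tm936. Below, the *eri-1;cde-1* animals are also called *cde-1* mutants, against *eri-1* controls.

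The libraries held between 5200610 and 9919222 counted reads. rRNA reads took 26.9% of them in the *cde-1* embryo library and 66.2% in its control. In the other pairs the shares were closer, the next widest being 50.3% in mutant L3 animals and 38.9% in control ones. Levels are therefore given as RPM, reads per 1000000 counted reads outside class rRNA. Intervals of ratios are exact 95% intervals that cover counting error only, since each genotype has 1 library. Reads were not tagged with molecular identifiers, so amplified copies of a molecule count as separate reads, and the intervals may be too narrow. Sense reads on *cde-1* itself (listed as K10D2.3) were lower in the mutant in every pair, from 0.352 RPM in mutant embryos, against 11.5 RPM in controls, to 25.2 RPM in mutant L3 animals, against 104 RPM in controls. The mir-35 to mir-42 family made up 19.0% of miRNA reads in mutant embryos and 15.2% in control embryos, and at most 0.419% in the L3 libraries. In young adult total small RNA it made up 18.7% in N2 and 11.3% in the mutant, and with HRDE-1 and WAGO-1 1.48% to 4.18%. The family thus set the L3 libraries apart, but it did not tell embryos from young adult total small RNA. The median log2 ratio of all tested genes outside class rRNA moved with the scaling. For antisense reads it was 0.52 in total small RNA, 0.28 in embryos, 1.00 in L3 animals, 0.34 with HRDE-1 and 0.07 with WAGO-1. Over all counted reads the embryo median was 1.39, and for sense reads it was -1.90 with rRNA left out and -0.79 over all counted reads.

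Antisense reads outnumbered sense reads on ncRNA genes in 8 of the 10 libraries. They formed 72.4% of ncRNA reads in mutant total small RNA and 77.4% in N2, and 91.8% in mutant embryo NRDE-3 precipitates and 89.6% in control ones. The L3 NRDE-3 precipitates were the exception, with 38.6% antisense in *eri-1;cde-1* animals and 29.1% in *eri-1* controls. With HRDE-1 the share was 51.1% in the mutant and 56.0% in the control, and with WAGO-1 it was 69.6% in the mutant and 70.0% in the control. On protein-coding genes 20.6% of reads were antisense in *eri-1;cde-1* L3 precipitates and 12.6% in *eri-1* ones. These shares were nearer to total small RNA (18.3% in the mutant, 14.9% in N2) than to embryo precipitates (88.3% in the mutant, 78.3% in the control). How much of the L3 reads was bound to NRDE-3 was not tested.

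Summed over the class, antisense reads came to 55337 RPM in mutant total small RNA, against 69576 RPM in N2, a ratio of 0.795 (interval 0.792 to 0.799). In embryos they came to 53112 RPM in the mutant and 65703 RPM in the control (ratio 0.808), a direction that turned round over all counted reads (1.75) and with edgeR's TMM scaling (1.65). In L3 animals they were higher in the mutant under each scaling tried, at 40680.0 RPM against 28857 RPM (1.41). With HRDE-1 the sums differed by little, at 16947 RPM in the mutant and 16983 RPM in the control (0.998, interval 0.989 to 1.01). With WAGO-1 they were 20308 RPM in the mutant and 15984 RPM in the control (1.27). On the sense strand mutant and control sums were 21127 and 20352 RPM in total small RNA (ratio 1.04, but 0.937 over all counted reads and 0.872 with TMM), 64648 and 70387 RPM in L3 animals (0.918), 16230 and 13353 RPM with HRDE-1 (1.22), and 8884 and 6865 RPM with WAGO-1 (1.29). In embryos the sense sums were 4731 RPM in the mutant and 7606 RPM in the control (0.622, but 1.34 over all counted reads and 1.27 with TMM).

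Members were then grouped by the overlap of their exons with genes of other classes. Of the 7949 genes, 6298 (79.2%) overlapped no gene of another class, although they could overlap another ncRNA gene. Another 769 lay opposite a gene such as a protein-coding gene or pseudogene, 351 opposite a tRNA, 32 opposite an snRNA, 31 opposite a snoRNA, 27 opposite a miRNA and 4 opposite a splice leader RNA, which supplies the short leader spliced onto many worm mRNAs. A further 229 were ncRNA isoforms of genes that also have rows of another class, mostly protein coding, 204 lay on the same strand as another gene, and 4 had transcript names not found in the annotation. For a member opposite a tRNA, an antisense read has the strand of the tRNA, and a sense read is antisense to it. Reads that fit both rows could have been placed on either, so these members and their partners cannot be told apart by counts.

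The antisense reads of the class lay on different positions in different library types. Members opposite tRNAs held 68.0% of antisense ncRNA reads in mutant total small RNA and 76.0% in N2, and 42.9% in mutant L3 precipitates and 51.7% in control ones. In embryos 93.1% of the mutant reads and 87.1% of the control reads lay on members without overlap. Isoforms of other genes took 53.9% in mutant HRDE-1 precipitates and 58.7% in control ones, and 69.2% in mutant WAGO-1 precipitates and 72.9% in control ones. Sense reads lay mostly on members without overlap in every library but the WAGO-1 control. With WAGO-1 they held 54.4% in the mutant and 35.7% in the control, and members opposite another gene held 23.8% in the mutant and 37.6% in the control.

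**Figure D1:**
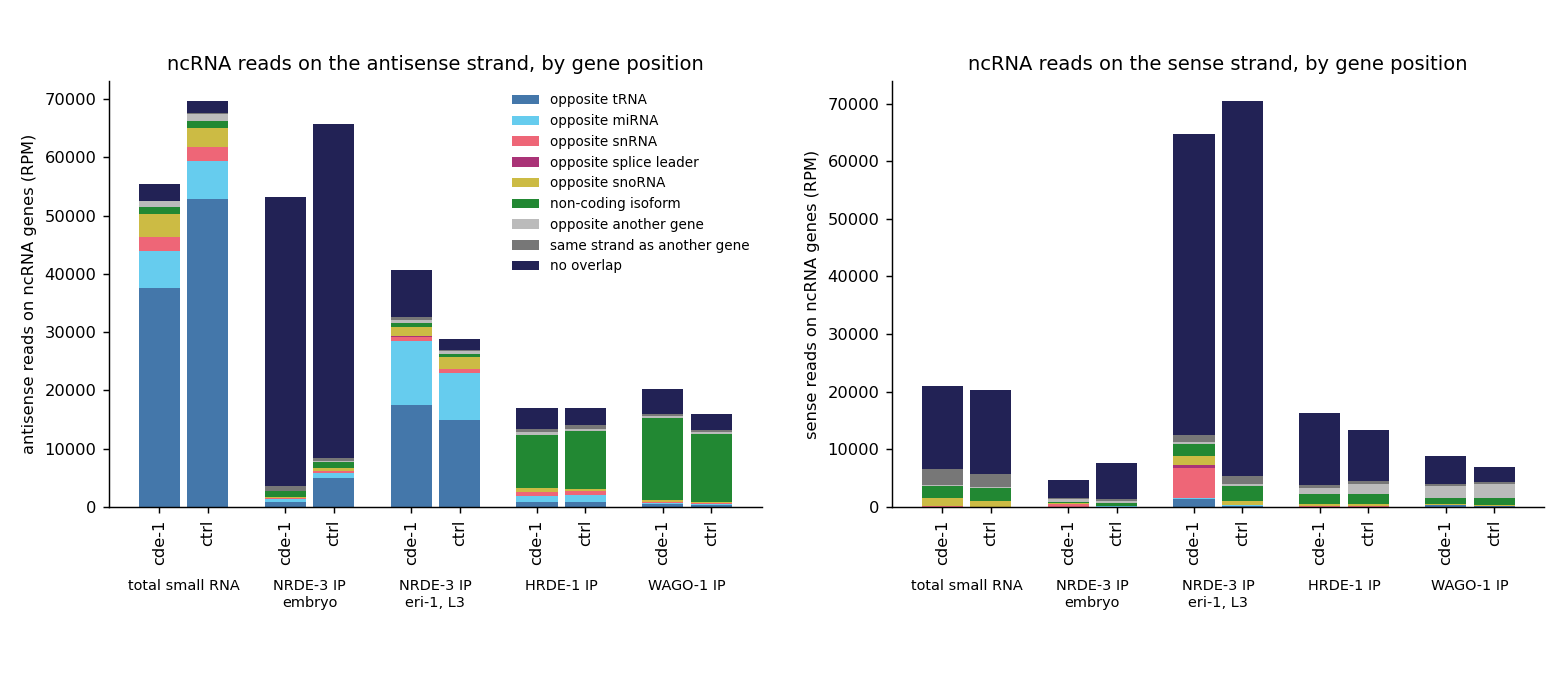
Reads on ncRNA genes by genomic position, in RPM, in each of the 10 libraries, with the *cde-1* library left of its control in each pair. Members opposite tRNAs hold the largest share of antisense reads in total small RNA and L3 libraries (42.9% in the L3 mutant), members without overlap do so in embryos, and isoforms of other genes with HRDE-1 and WAGO-1.

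The 10 genes with the highest mean antisense level over the libraries included 4 opposite miRNAs, 1 opposite a snoRNA, 2 isoforms of other genes and 3 without overlap. T05E11.9 (IV:11106418-11107579, plus strand, 1162 nt) led by a wide margin through the embryo libraries alone. It had 34271 RPM in mutant embryos and 48430 RPM in control embryos, which was 64.5% and 73.7% of all antisense ncRNA reads there. Elsewhere it reached at most 79.5 RPM in mutants and 67.2 RPM in controls. Y53F4B.45 (II:15042805-15044011, minus strand, 1207 nt) showed the same concentration, with 6093 RPM in mutant embryos, against 3912 RPM in control embryos, and at most 98.8 RPM in any other library. These 2 genes were thus read almost only in the NRDE-3 precipitates of embryos. No other embryo libraries were compared, so stage and NRDE-3 binding cannot be told apart here. F39D8.7 (X:15426582-15426806, 225 nt) had 4332 RPM in mutant embryos and 424 RPM in control embryos (ratio 10.2, interval 9.67 to 10.8).

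Isoforms of other genes led with the germline Argonautes. Y71A12B.10 (I:13957199-13960612) had 3597 RPM in mutant HRDE-1 precipitates and 4954 RPM in control ones, and 7107 RPM in mutant WAGO-1 precipitates and 5761 RPM in control ones. W03H9.2 (II:14142649-14143869) had 1393 RPM in mutant HRDE-1 precipitates and 1765 RPM in control ones, and 2863 RPM in mutant WAGO-1 precipitates and 1960 RPM in control ones. Both genes are also annotated as protein coding, so the ncRNA isoform shares exons with a coding one. Neither passed 2-fold in these 2 pairs.

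T09B4.14 lies opposite mir-1, the muscle miRNA, F16A11.6 opposite mir-71, K01F9.6 opposite mir-80 and ZK930.13 opposite mir-45. T09B4.14 had 3439 RPM in mutant total small RNA and 3436 RPM in N2, and 3708 RPM in mutant L3 animals and 2249 RPM in control ones. Per length it was the most covered member on the antisense strand, with a mean of 10760 RPM per kb, against 7136 RPM per kb for T05E11.9 and 7399 RPM per kb for H09I01.4, opposite the snoRNA H09I01.2. Over all 27 members opposite miRNAs, antisense reads in total small RNA came to 6249 RPM in the mutant and 6486 RPM in N2, while the partner miRNA rows had ratios that differed from the members' by little in the same pair (0.964 for the members and 0.976 for the partners).

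On the sense strand the leading genes were very short, most of them without overlap. W01D2.8 (II:14801350-14801427, 78 nt) had the highest mean level per length, 43860 RPM per kb, ahead of F08G2.12 (68 nt, 27830 RPM per kb), F08G2.13 (75 nt, 25623 RPM per kb) and the neighbours M163.15 (72 nt, 22243 RPM per kb) and M163.12 (78 nt, 20666 RPM per kb). W01D2.8 had 12585 RPM in mutant L3 animals and 16995 RPM in control ones, 1015 RPM in mutant total small RNA and 1739 RPM in N2, 668 RPM in mutant HRDE-1 precipitates and 726 RPM in control ones, and 45.1 RPM in mutant embryos and 137 RPM in control ones. W01D2.8 was thus most abundant in the NRDE-3 precipitates of L3 animals, and its lowest values were those of mutant embryos and control WAGO-1 precipitates. The L3 libraries differ from all others in stage, *eri-1* genotype and bacterial food, which cannot be told apart. ZK265.11, the tenth of the list, was instead most abundant in total small RNA, with 1987 RPM in the mutant and 1522 RPM in N2, against 499 RPM in mutant L3 animals and 795 RPM in control ones. B0361.13, CD4.18 and the pair K10H10.14 and K10H10.11, the second of which lies within the first, completed the list.

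These short sense-read genes shared a direction in the WAGO-1 pair. W01D2.8 had 249 RPM in mutant WAGO-1 precipitates and 52.5 RPM in control ones (ratio 4.75), and B0361.13 had 550 RPM in the mutant and 102 RPM in the control (5.41). CD4.18, M163.15, F08G2.13, F08G2.12, M163.12 and K10H10.14 rose between 2.32- and 3.91-fold, while K10H10.11 (1.73) and ZK265.11 (1.16) stayed below 2-fold. Of all tested genes 6.28% rose in sense in that pair and 14.8% fell. In HRDE-1 precipitates 1 of the 10, B0361.13, rose (2359 RPM in the mutant and 780 RPM in the control, ratio 3.03), beside 4.41% of all tested genes. In the embryo pair 6 of the 10 had 50 or more reads and all 6 fell, beside 88.1% of all tested genes, so this count is near the background.

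Genes with 50 or more reads on a strand in either library of a pair were then compared, and a change of at least 2-fold was counted, with counts of 3 or fewer set to 3. On the antisense strand 40 of 424 tested members rose and 9 fell in total small RNA, beside 22.0% of all tested genes outside class rRNA that rose and 7.87% that fell. In L3 animals 109 of 404 rose and 22 fell, beside 50.1% and 14.9% of all tested genes. With HRDE-1, 41 of 196 rose and 15 fell, beside 27.8% and 12.6%, and with WAGO-1 34 of 123 rose and 10 fell, beside 15.9% and 16.4%. In embryos 26 of 128 rose and 80 fell, beside 29.0% that rose and 24.4% that fell. As shares, rising members were thus scarcer than rising genes of all classes in total small RNA, L3 animals, HRDE-1 precipitates and embryos, and more frequent with WAGO-1. These shares mix members of different positions. In total small RNA 275 of the 424 tested members lay opposite tRNAs, of which 14 rose, while 16 of 40 without overlap rose. Members without overlap are described apart below.

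On the sense strand the share of rising members was above that of all tested genes in each of the 5 pairs. In total small RNA 31 of 173 members rose and 9 fell, beside 3.18% of all tested genes that rose and 1.59% that fell. In L3 animals 133 of 270 rose and 23 fell, beside 2.86% and 6.51%. With HRDE-1 19 of 144 rose and 13 fell, beside 4.41% and 4.43%, and with WAGO-1 42 of 135 rose and 21 fell, beside 6.28% and 14.8%. In embryos 19 of 62 rose and 31 fell, beside 2.71% and 88.1%. The median log2 ratio of the tested members on the sense strand was 0.89 in L3 animals, against -0.30 over all tested genes, and -1.08 in embryos, against -1.90. The counts of the members therefore differed most from those of all genes on the sense strand in L3 animals.

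**Figure D2:**
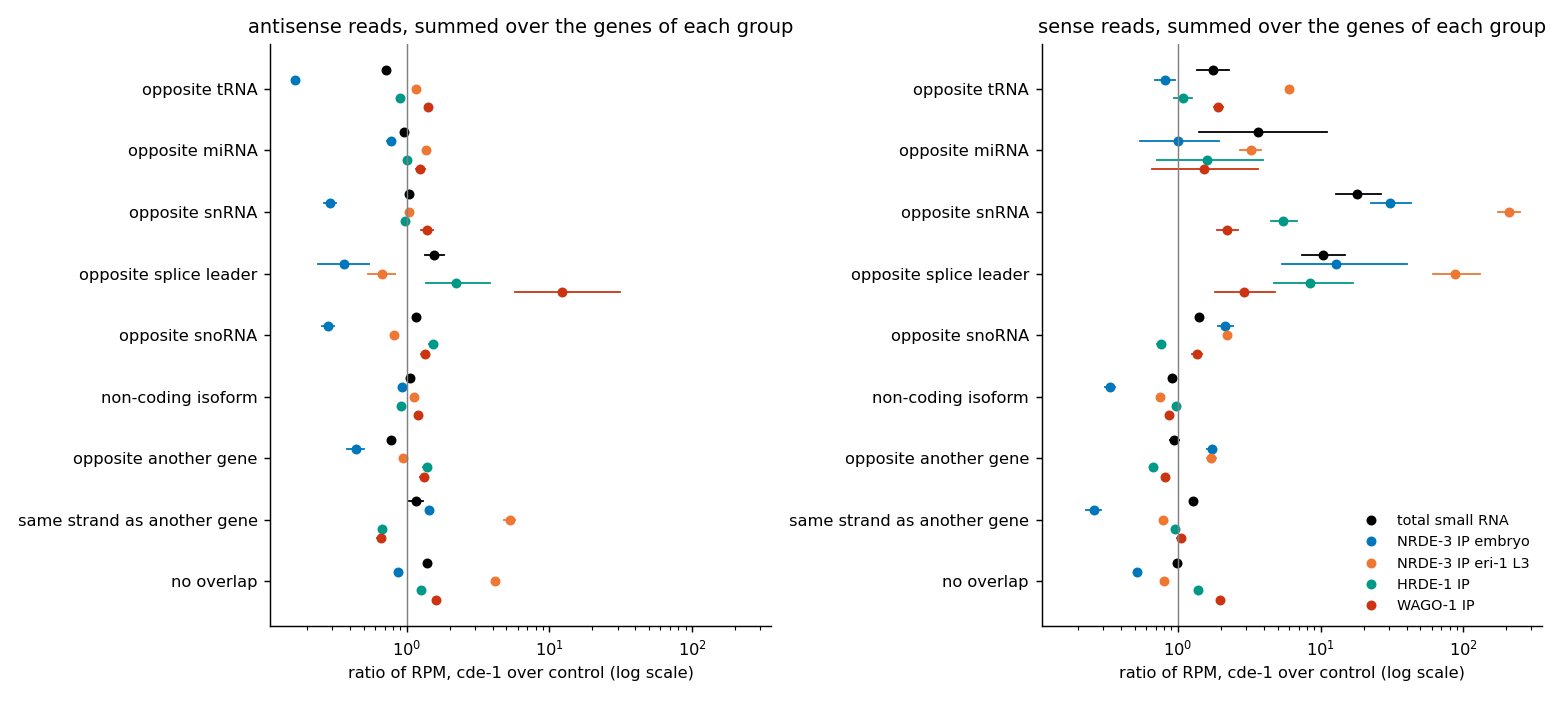
Ratio of summed RPM in *cde-1* over control for each position group, strand and comparison, on a log10 axis, with exact 95% counting intervals. Sense reads on members opposite snRNAs are higher in the mutant in all 5 pairs, with ratios from 2.22 with WAGO-1 to 207 in L3 animals, while antisense reads on the same members have ratios between 0.29 and 1.39.

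Sense reads on members opposite snRNAs, the RNA cores of the spliceosome, had the highest ratios of any position group in total small RNA, embryos and L3 animals, and came after members opposite splice leader RNAs with HRDE-1 and WAGO-1. These reads are antisense to the snRNA. In L3 animals the 32 members summed to 5251 RPM in *eri-1;cde-1* and 25.3 RPM in *eri-1* (ratio 207, interval 175 to 248). All 32 were tested and all 32 rose, beside 2.86% of all tested genes. They had 62 to 5204 reads per gene in the mutant and 0 to 11 reads in the control, so no mutant value overlapped a control value. All 32 thus passed the 50-read minimum through the mutant library alone, and counting them as rises adds nothing to these reads. Their median log2 ratio was 6.79. The sums were 415 RPM in mutant embryos and 13.5 RPM in controls (30.8), 96.2 RPM in mutant total small RNA and 5.31 RPM in N2 (18.1), 138 RPM in mutant HRDE-1 precipitates and 25.1 RPM in control ones (5.49), and 73.3 RPM in mutant WAGO-1 precipitates and 33.1 RPM in control ones (2.22). Without a minimum, all 32 had more RPM in the mutant in embryos and total small RNA. With HRDE-1 30 had more and 1 less, and with WAGO-1 24 had more and 6 less. All 6 tested members rose in embryos, all 4 in total small RNA, all 6 with HRDE-1 and 3 of 4 with WAGO-1. Of all tested genes 2.71%, 3.18%, 4.41% and 6.28% rose. The member counts stayed the same over all counted reads and with TMM. Outside WAGO-1 no control count passed 38 reads, so tested members entered through the mutant library alone.

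The snRNA rows themselves showed the same change on their own antisense strand. They cover the same loci, and a read that fits both rows could be placed on either, so this is not a second observation. The 34 partner snRNAs had 4915 RPM of antisense reads in mutant L3 animals and 24.6 RPM in controls, a ratio of 200, and ratios of 25.9 in total small RNA, 30.8 in embryos, 5.19 with HRDE-1 and 1.86 with WAGO-1. Reads of the other strand behaved differently. On the strand of the snRNA the members had 712 RPM in mutant L3 animals and 690 RPM in controls (1.03), and 2414 RPM in mutant total small RNA and 2332 RPM in N2 (1.03, below 1 over all counted reads and with TMM).

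T08G5.18 (V:14028461-14028640, opposite the snRNA T08G5.11) and F08H9.13 (V:14468572-14468746, opposite F08H9.11) rose on the sense strand in all 5 pairs. T08G5.18 had 20.8 RPM in mutant total small RNA and 0.312 RPM in N2, 66.6 RPM in mutant embryos and 0.986 RPM in controls, 1056 RPM in mutant L3 animals and 1.74 RPM in controls, 31.5 RPM in mutant HRDE-1 precipitates and 9.00 RPM in control ones, and 7.93 RPM in mutant WAGO-1 precipitates and 2.10 RPM in control ones. The mutant library was thus higher in each pair, and the L3 mutant library stood far above the other 9. C15F1.14 (II:6968392-6968562, opposite C15F1.9 and C15F1.10) had 1841 reads in mutant L3 animals and 2 reads in controls, a ratio of 966 with a wide interval of 267 to 7982. snRNA genes exist in several near-identical copies, so the split of reads between single members is uncertain, and their sum is the firmer value.

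Members opposite splice leader RNAs moved in the same way. The 4 genes, C17C3.22, C17C3.23, R12E2.18 and Y75B8A.49, had between 607 and 661 sense reads each in mutant L3 animals and between 6 and 10 in controls. Their sum was 507 RPM in the mutant and 5.80 RPM in the control (ratio 87.4, interval 61.1 to 130). The ratio was 10.3 in total small RNA, where all 4 had more RPM in the mutant, 12.9 in embryos, 8.47 with HRDE-1 and 2.90 with WAGO-1. Y75B8A.49 (III:12250463-12250572) had 16.0 RPM in mutant total small RNA and 0.312 RPM in N2, and 14.5 RPM in mutant HRDE-1 precipitates and 1.66 RPM in control ones. With WAGO-1 it also rose on the other strand, which is that of the splice leader RNA, with 82 reads in the mutant and 1 read in the control (68.9, interval 12.0 to 2752).

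**Figure D3:**
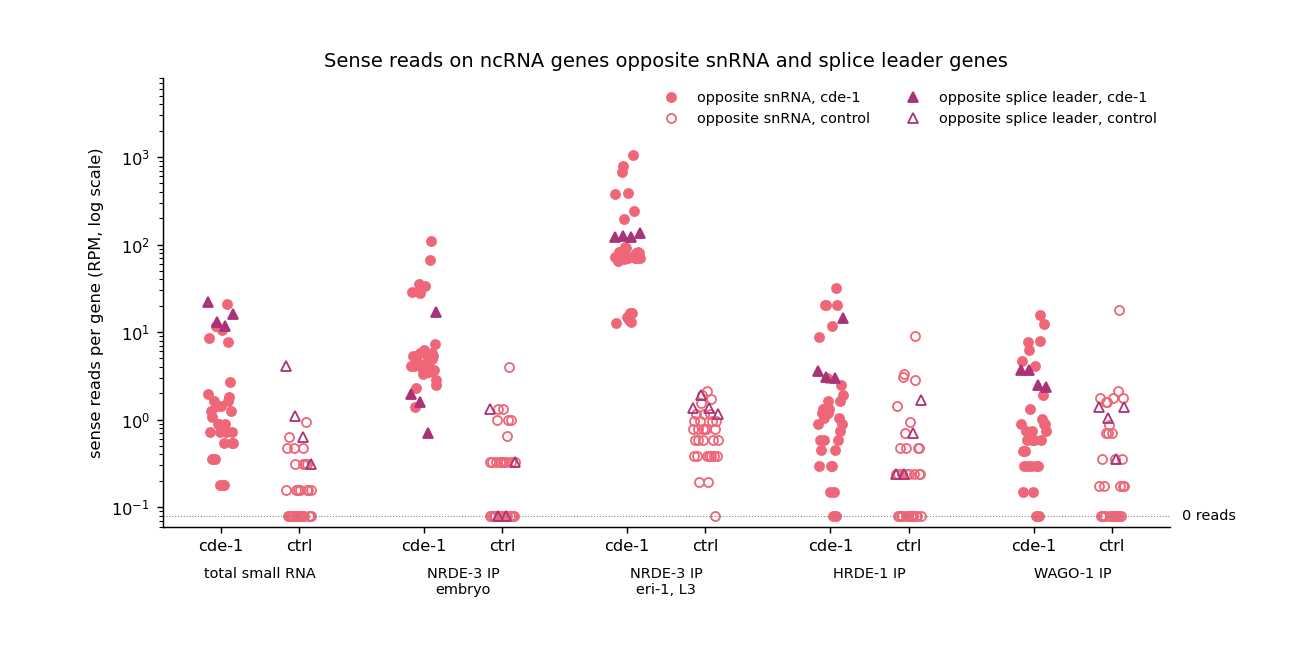
Sense RPM of each member opposite an snRNA or a splice leader RNA, 1 point per gene on a log10 axis, with the *cde-1* library left of its control in each pair and genes with 0 reads at the dotted line. All 32 members opposite snRNAs are higher in the mutant in the total small RNA, embryo and L3 pairs, and the L3 mutant library holds the highest values, up to 1056 RPM.

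Members opposite tRNAs carried the tRNA strand for the most part. In total small RNA their antisense reads came to 37647 RPM in the mutant and 52887 RPM in N2 (ratio 0.712), and the partner tRNA rows had 30133 RPM of sense reads in the mutant and 42692 RPM in N2 (0.706). Members differed among themselves, and 240 of the 351 had more antisense RPM in the mutant, while the highest level of any member was 912 RPM in the mutant and 1552 RPM in N2. Over the 275 tested members the median log2 ratio was 0.19, but 0.05 over all counted reads and -0.06 with TMM. In embryos the sum was 823 RPM in the mutant and 4972 RPM in the control (0.165), and all 42 tested members fell, as did 32 of them over all counted reads and 35 with TMM. Without a minimum, 302 of the 351 had less RPM in mutant embryos and 31 had more. Of all tested genes 24.4% fell in antisense in that pair, and the median sense log2 ratio of all genes was -1.90. The partner tRNAs had a ratio of 0.155 there, and the cause was not tested. F52E10.8 (X:16274497-16274565) fell furthest, with 11.6 RPM in mutant embryos and 131 RPM in control ones.

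The reverse strand of tRNAs rose in L3 animals. Sense reads on members opposite tRNAs summed to 1463 RPM in the mutant and 242 RPM in the control (ratio 6.04, interval 5.69 to 6.42). Of the 351 members, 333 had more RPM in the mutant and 11 had less. All 41 tested members rose, by a median of 12.0-fold, beside 2.86% of all tested genes. No control count passed 47 reads, so these 41 met the 50-read minimum through the mutant library alone, and their count and median follow from it. With WAGO-1 the sum was 301 RPM in the mutant and 157 RPM in the control (1.92), and 170 members had more RPM in the mutant and 76 had less. There 6 of 7 tested members rose, beside 6.28% of all tested genes, but no control count passed 49 reads. In total small RNA the sum was 27.6 RPM in the mutant and 15.8 RPM in N2 (1.75), with no member at 50 reads, and in embryos 67.8 RPM in the mutant and 83.5 RPM in the control (0.812, but 1.75 over all counted reads and 1.66 with TMM).

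Members opposite snoRNAs, the guides of rRNA modification and cleavage, showed a mixed picture. On the sense strand 14 of 16 tested members rose in L3 animals, beside 2.86% of all tested genes. The sum there was 1577 RPM in the mutant and 717 RPM in the control (2.20). In total small RNA and in embryos 2 of 4 rose, beside 3.18% and 2.71%. T19C4.17 (V:11175524-11175717, opposite the snoRNA T19C4.12) carried much of this, with 80.4 RPM in mutant total small RNA and 0.937 RPM in N2, 150 RPM in mutant embryos and 0.986 RPM in controls, and 516 RPM in mutant L3 animals and 3.09 RPM in controls. Its HRDE-1 values were 16.3 RPM in the mutant and 8.77 RPM in the control, and its WAGO-1 values 12.0 RPM in the mutant and 9.97 RPM in the control, both below 2-fold. On the snoRNA strand 10 of 11 tested members fell in embryos, Y37E3.28 furthest with 1.59 RPM in the mutant and 17.4 RPM in the control, and 5 of the 11 fell over all counted reads. In that pair 24.4% of all tested genes fell in antisense, the strand counted here, and 88.1% fell in sense. For these members an antisense read has the strand of the snoRNA. K07C10.6 (II:11167189-11167304), named here after its values were seen, was the exception, with 9.69 RPM in mutant embryos and 3.95 RPM in control ones, and it rose on that strand in all 4 pairs in which it was tested.

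Members that overlapped no gene of another class held 59 of the 109 antisense rises in L3 animals and 21 of the 26 in embryos. In L3 animals they summed to 8018 RPM in the mutant and 1920 RPM in the control (ratio 4.18, interval 4.09 to 4.27), 59 of 72 tested members rose and 6 fell, beside 50.1% and 14.9% of all tested genes, and the median log2 ratio was 3.42, against 1.00 over all tested genes. Long intergenic ncRNAs, a separate class of the tables, had a ratio of 4.54 in the same pair and protein-coding genes a ratio of 1.49. In embryos 21 of 37 tested members without overlap rose and 8 fell, beside 29.0% and 24.4% of all tested genes, while their sum, most of it T05E11.9, was lower in the mutant (ratio 0.864, but 1.87 over all counted reads and 1.76 with TMM). In total small RNA 16 of 40 rose and 0 fell, beside 22.0% and 7.87%, and the sum was 2785 RPM in the mutant and 2006 RPM in N2 (1.39). With HRDE-1 15 of 52 rose and 8 fell, which is near the 27.8% and 12.6% of all tested genes (3629 RPM in the mutant and 2880 RPM in the control). With WAGO-1 17 of 50 rose and 3 fell, beside 15.9% and 16.4% (4373 RPM in the mutant and 2721 RPM in the control).

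**Figure D4:**
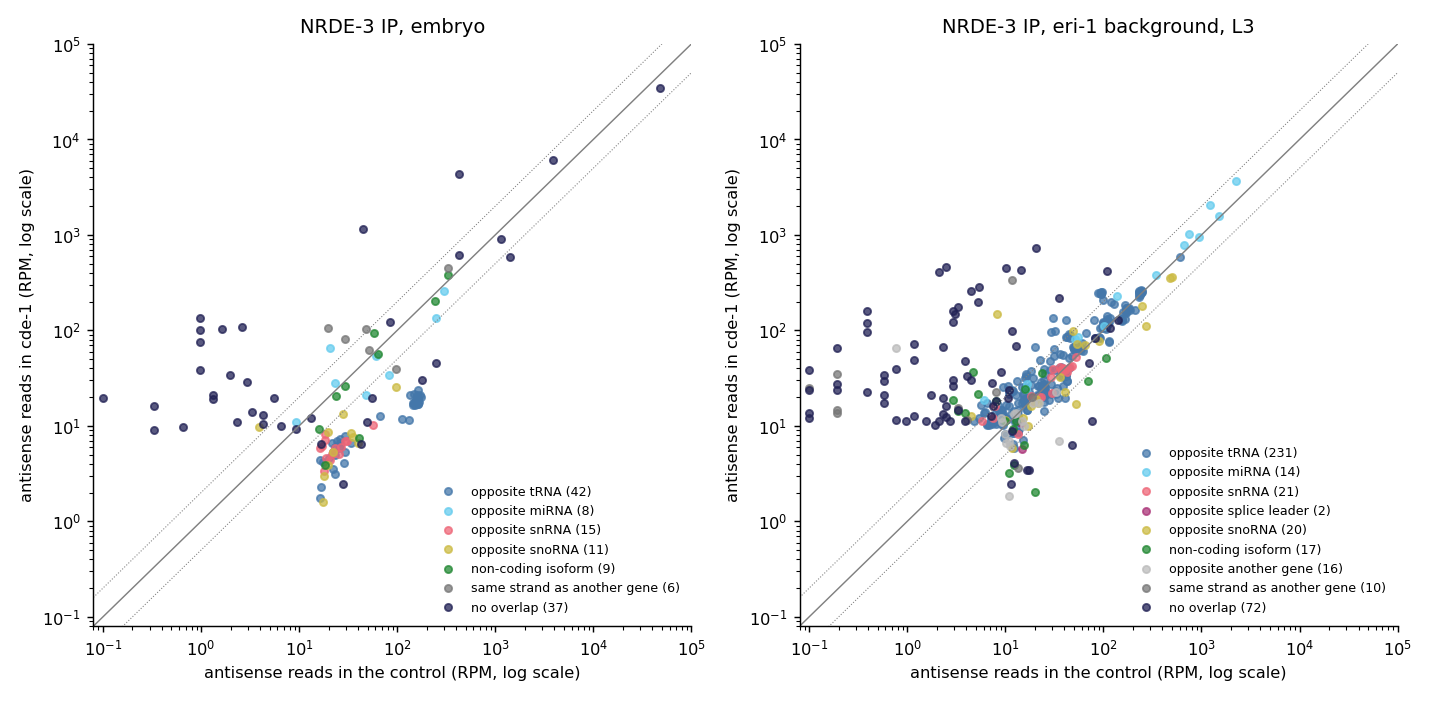
Antisense RPM of tested ncRNA genes in *cde-1* (vertical axis) against control (horizontal axis) for NRDE-3 precipitates, on log10 axes, with 1 point per gene coloured by position and 0 reads drawn at 0.1 RPM. In L3 animals 59 of 72 genes without overlap lie at least 2-fold above equality, and in embryos the 42 genes opposite tRNAs lie at least 2-fold below it. These 42 genes all met the read minimum in the control library.

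C36C9.10 (X:1681752-1681886), named after its values were seen, and F52D4.1 (IV:13709270-13709428) were the only members of 31 tested in all 5 pairs whose antisense reads rose in every one. C36C9.10 had 65.3 RPM in mutant total small RNA and 18.3 RPM in N2, 1146 RPM in mutant embryos and 44.4 RPM in controls, 431 RPM in mutant L3 animals and 14.3 RPM in controls, 272 RPM in mutant HRDE-1 precipitates and 124 RPM in control ones, and 797 RPM in mutant WAGO-1 precipitates and 189 RPM in control ones. Every mutant value was above its own control, but the pairs overlapped, since control WAGO-1 exceeded mutant total small RNA. F52D4.1 had 9.69 RPM in mutant total small RNA and 0.937 RPM in N2, 108 RPM in mutant embryos and 2.63 RPM in controls, 158 RPM in mutant L3 animals and 0.387 RPM in controls, 12.4 RPM in mutant HRDE-1 precipitates and 0.474 RPM in control ones, and 20.3 RPM in mutant WAGO-1 precipitates and 2.97 RPM in control ones. All 5 mutant values of F52D4.1 were above all 5 control values. Its L3 ratio of 410 rests on 2 control reads (interval 113 to 3390).

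F15A8.19 (X:4410243-4410419) rose in all 4 pairs in which it was tested, with 257 RPM in mutant L3 animals and 4.45 RPM in controls, and 33.1 RPM in mutant HRDE-1 precipitates and 1.42 RPM in control ones. F39D8.7 rose in 4 of 5 pairs, with 725 RPM in mutant L3 animals and 20.7 RPM in controls, 378 RPM in mutant HRDE-1 precipitates and 89.3 RPM in control ones, and 551 RPM in mutant WAGO-1 precipitates and 188 RPM in control ones. In total small RNA it had 12.7 RPM in the mutant and 7.65 RPM in N2, below 2-fold. F33C8.10 (X:14718013-14718144, chosen after its values were seen) also rose in 4 of 5, all but WAGO-1. Of the 17 members without overlap that rose in 3 or more pairs, 9 (52.9%) lay on the X chromosome, beside 13 of the 35 tested in 3 or more pairs and 33.6% of all members without overlap.

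T19C4.11 (V:11176943-11177120) and T19C4.16 (V:11176926-11177134) overlap each other on the plus strand, within 2 kb of T19C4.17, and gave the largest antisense rises of total small RNA and of embryos. T19C4.16 had 70.2 RPM in mutant total small RNA and 1.72 RPM in N2, 134 RPM in mutant embryos and 0.986 RPM in controls, and 459 RPM in mutant L3 animals and 2.51 RPM in controls. T19C4.11 had 46.5 RPM in mutant total small RNA and 0.625 RPM in N2, 100 RPM in mutant embryos and 0.986 RPM in controls, and 406 RPM in mutant L3 animals and 2.13 RPM in controls. With HRDE-1 and WAGO-1 both genes stayed below 2-fold, at 9.84 to 13.6 RPM in mutants and 7.87 to 9.00 RPM in controls. K10F12.10 (III:400386-400538) had 75.6 RPM in mutant embryos and 0.986 RPM in controls, and 119 RPM in mutant L3 animals and 0.387 RPM in controls. C38C6.8 (II:14635795-14636093, *lfor-1*) had 104 RPM in mutant embryos and 1.64 RPM in controls, 72.0 RPM in mutant L3 animals and 1.16 RPM in controls, and 21.9 RPM in mutant WAGO-1 precipitates and 0.700 RPM in control ones.

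**Figure D5:**
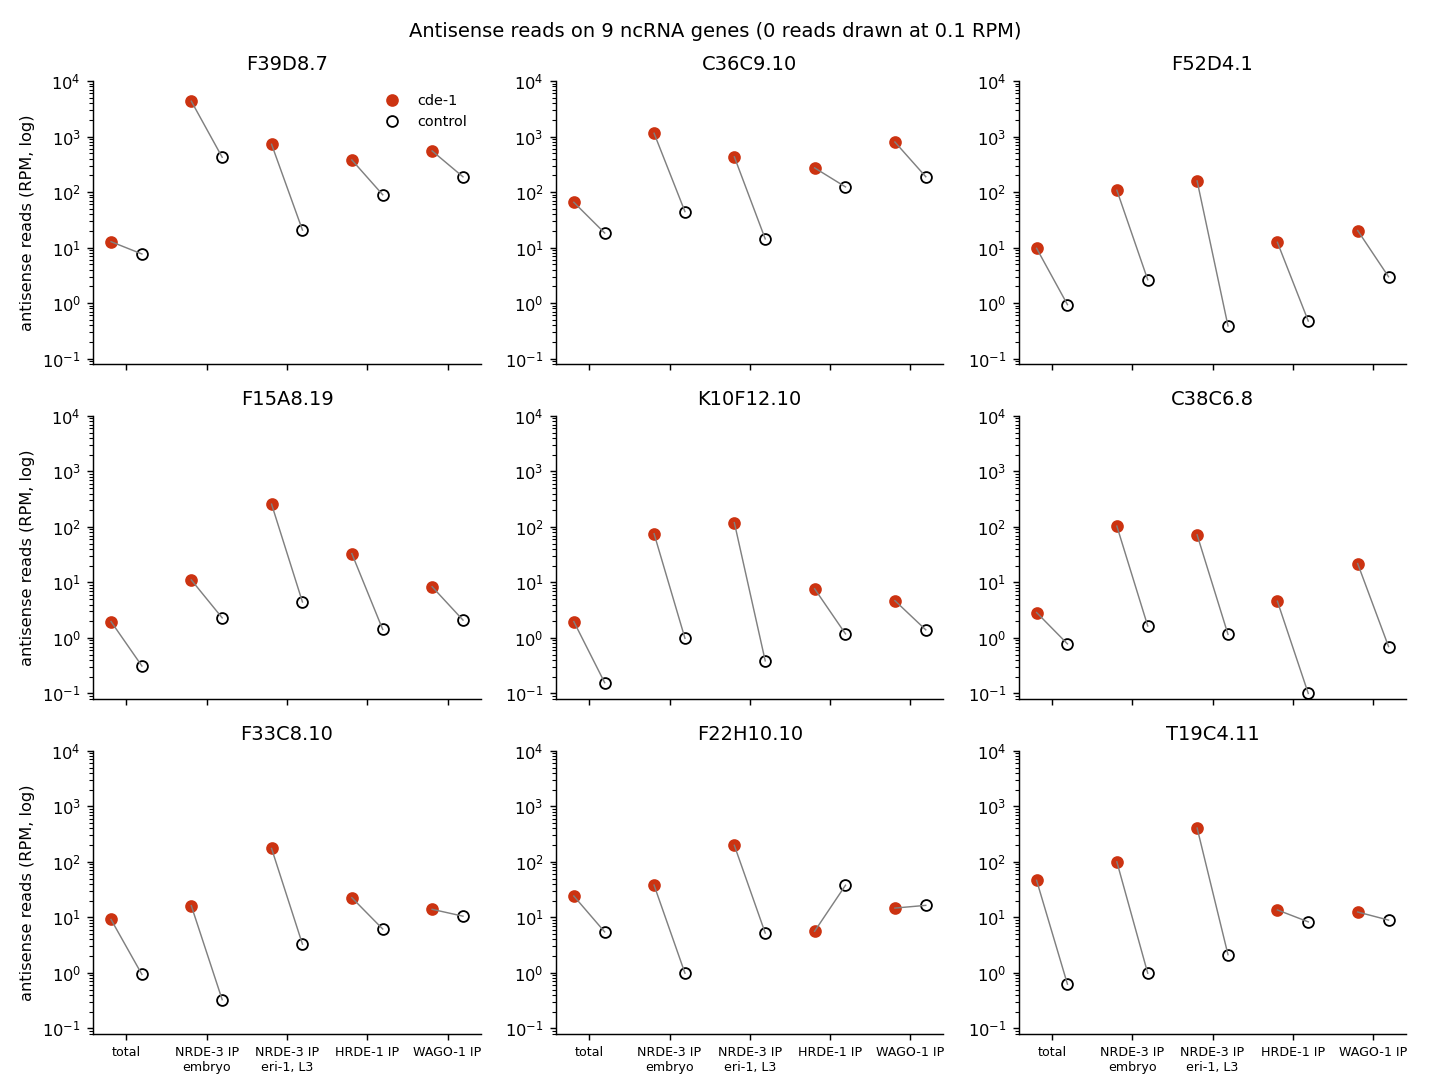
Antisense RPM of 9 ncRNA genes in the 5 pairs on a log10 axis, 1 point per library, with *cde-1* left of its control and 0 reads drawn at 0.1 RPM. C36C9.10 and F52D4.1 are at least 2-fold higher in the mutant in every pair, while F22H10.10 is lower in the mutant with HRDE-1, at 5.62 RPM against 37.9 RPM.

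F27C1.18 (I:5453364-5453478, on the strand of the pseudogene T05E8.1) was the member whose antisense reads fell most often, in all 4 pairs in which it was tested. It had 2.15 RPM in mutant total small RNA and 16.2 RPM in N2, 3.65 RPM in mutant L3 animals and 13.5 RPM in controls, 96.8 RPM in mutant HRDE-1 precipitates and 282 RPM in control ones, and 40.0 RPM in mutant WAGO-1 precipitates and 191 RPM in control ones. In embryos, where it was not tested, it had 0.176 RPM in the mutant and 1.97 RPM in the control. Antisense reads on the isoform of *fbxa-218*, an F-box gene, fell in total small RNA (8.80 RPM in the mutant and 24.8 RPM in N2) and in L3 animals (2.03 RPM in the mutant and 20.1 RPM in the control). With HRDE-1 that isoform had 206 RPM in the mutant and 366 RPM in the control, and with WAGO-1 455 RPM in the mutant and 376 RPM in the control, both below 2-fold.

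Other antisense falls were seen in single pairs. F44E7.15 lies opposite mir-253 and had 4.67 RPM in mutant total small RNA and 85.8 RPM in N2 (ratio 0.0544, interval 0.0352 to 0.0806). In L3 animals C02B4.6 had 6.29 RPM in the mutant and 48.1 RPM in the control, and R160.8 had 11.4 RPM in the mutant and 76.8 RPM in the control. With HRDE-1 T06E4.16 had 0.739 RPM in the mutant and 16.3 RPM in the control, F22H10.10 had 5.62 RPM in the mutant and 37.9 RPM in the control, and CD4.17 had 9.90 RPM in the mutant and 58.8 RPM in the control. With WAGO-1 T23B12.14 had 3.09 RPM in the mutant and 58.8 RPM in the control, and the isoform of *sulp-8* had 1.18 RPM in the mutant and 9.45 RPM in the control. R10E11.10 had 2.47 RPM in mutant embryos and 27.9 RPM in control ones. Rises in single pairs included C28H8.14 with HRDE-1 (92 reads in the mutant and 2 in the control, ratio 28.7, interval 7.72 to 241), H06I04.14 with WAGO-1 (55 reads and 1 read, 46.2, interval 7.95 to 1857) and ZK265.11 in total small RNA (58 and 3 reads, 22.2, interval 7.23 to 111). H06I04.14 and ZK265.11 lie on the strand of the protein-coding genes H06I04.6 and ZK265.4, so their antisense reads can be antisense to those genes as well.

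On the sense strand T23G5.9 (III:9242008-9242135), opposite the protein-coding gene T23G5.6, fell in each of the 3 pairs in which it was tested. It had 0.538 RPM in mutant total small RNA and 16.6 RPM in N2, 14.5 RPM in mutant HRDE-1 precipitates and 156 RPM in control ones, and 28.1 RPM in mutant WAGO-1 precipitates and 273 RPM in control ones. Its mutant values were 0.528 RPM in embryos and 0.406 RPM in L3 animals, against 7.89 RPM in control embryos and 6.57 RPM in control L3 animals, so the mutant was lower in 5 of 5 pairs. A sense read on T23G5.9 is antisense to T23G5.6. T11F9.23 had 4.14 RPM in mutant HRDE-1 precipitates and 75.6 RPM in control ones, and 9.84 RPM in mutant WAGO-1 precipitates and 87.3 RPM in control ones. C46G7.111 fell in 3 pairs, among them HRDE-1 with 5.17 RPM in the mutant and 37.7 RPM in the control, and Y48B6A.17, an annotated antisense RNA opposite the protein-coding gene Y48B6A.10, had 7.05 RPM in mutant WAGO-1 precipitates and 108 RPM in control ones. Y56A3A.39, opposite Y56A3A.5, had 2.69 RPM in mutant total small RNA and 10.8 RPM in N2.

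Other sense rises lay mostly away from structural RNAs. W10C8.16 (I:2835483-2835622) rose with both germline Argonautes, with 20.1 RPM in mutant HRDE-1 precipitates and 0.948 RPM in control ones, and 25.6 RPM in mutant WAGO-1 precipitates and 1.40 RPM in control ones. B0395.7, opposite the protein-coding gene B0395.1, had 149 RPM in mutant embryos and 3.29 RPM in control ones. F20D1.20 (X:14997472-14997612), chosen after its values were seen, rose in all 4 pairs in which it was tested, with 772 RPM in mutant embryos and 75.6 RPM in controls and 85.6 RPM in mutant L3 animals and 3.09 RPM in controls. The largest sense rise with WAGO-1 was that of gene WBGene00195828 (IV:16005604-16005828), with 150 reads in the mutant and 2 in the control (63.0, interval 17.1 to 525). In the same pair C45E1.7 had 50 reads in the mutant and 3 in the control (14.0, interval 4.52 to 70.2). H27M09.7, opposite the snRNA H27M09.6, was among the largest sense rises with HRDE-1, with 11.8 RPM in the mutant and 0.948 RPM in the control.

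The 3 largest sense falls in embryos and in L3 animals were as follows. T09A5.18, on the strand of the lincRNA T09A5.22, had 9.51 RPM in mutant embryos and 121 RPM in control ones, F54F2.13 had 4.40 RPM in the mutant and 48.7 RPM in the control, and Y73B3A.23 had 3.35 RPM in the mutant and 34.5 RPM in the control. Y73B3A.23 was more abundant in total small RNA, with 120 RPM in the mutant and 148 RPM in N2. In L3 animals K08E5.8 had 1.22 RPM in the mutant and 15.3 RPM in the control, F02E8.10 had 3.65 RPM in the mutant and 37.7 RPM in the control, and T25D10.6 had 2.23 RPM in the mutant and 18.8 RPM in the control.

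Among long-known ncRNAs, *tts-1*, which is abundant in long-lived mutants, and *rncs-1*, a structured RNA that can inhibit Dicer, were read mostly in sense. *tts-1* had 42.2 RPM in mutant total small RNA and 51.2 RPM in N2, 8.98 RPM in mutant embryos and 84.8 RPM in controls, and 35.3 RPM in mutant L3 animals and 68.8 RPM in controls. *rncs-1* had 20.8 RPM in mutant total small RNA and 20.2 RPM in N2, 2.29 RPM in mutant embryos and 17.8 RPM in controls, and 16.2 RPM in mutant L3 animals and 19.7 RPM in controls. Both fell in embryos, where 88.1% of all tested genes fell in sense, and neither passed 2-fold in total small RNA or L3 animals. The names *lep-5* and *yrn-1* matched no member and were not analysed here.

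The SmY RNAs, small nuclear RNAs of nematodes linked to trans-splicing, are split over classes in these tables. The 3 listed as ncRNA are described here, chosen after their values were seen, and the other 9, listed as snRNA or snoRNA, are not members. Antisense reads on *smy-6* (V:14097435-14097517) numbered 789 in mutant L3 animals and 15 in controls, those on *smy-9* (IV:13602202-13602278) numbered 471 in the mutant and 2 in the control, and those on *smy-12* 173 in the mutant and 1 in the control. The ratios were 55.2 (interval 33.3 to 99.1), 247 (68.0 to 2047) and 182 (32.2 to 7211). Their sense reads in the same libraries were few, at 4 to 8 in the mutant and 2 to 6 in the control. *smy-6* also rose with HRDE-1, with 75 reads in the mutant and 8 in the control, and with WAGO-1, with 54 reads in the mutant and 11 in the control.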

How the data were processed

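The authors sequenced 18 to 30 nt small RNAs, mapped them to WS243 transcripts with Bowtie2 at default parameters and deposited counts of sense and antisense reads per transcript, without normalization. At these settings 1 location is reported per read, so copies and overlapping rows share reads. Counts were summed per gene and class (a gene with rows in several classes counts in each) and divided by counted reads outside class rRNA. Positions came from Ensembl release 115 (WBcel235), where 7956 of 7981 member rows matched. Ratios have exact (Clopper-Pearson) 95% intervals. Depth per library is given above, and 3 reads, the floor, were 0.441 to 0.986 RPM. The genes named were the 10 with the highest mean RPM per strand, the 3 largest rises and falls per comparison and strand past 2-fold with 50 or more reads, and 4 long-known ncRNAs, others being said to be chosen later. Members and lists were chosen with earlier results of these data known. Alternatives were other denominators, TMM factors (edgeR 4.0.16, R 4.3.3), other minimum counts, 1 added read and fewer members. A 26S rRNA tail sequencing table has 6 columns matched to no sample, and it was not used here. The code used scipy 1.17.1, matplotlib 3.10.9 and pandas 2.3.3 under Python 3.11.15, and was tested on simulated data.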

Additional observations from a re-analysis of the deposited data

Results flagged for a closer look

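Among all members, 19 cases of a gene and strand passed 2-fold upward in some comparisons and downward in others (13 antisense and 6 sense, or 14 in all over all counted reads and 20 with TMM). The 9 among the genes named by rule are given here. With 1 library per genotype the differences between comparisons were not tested, and ratios below are of RPM in *cde-1* over control. On the sense strand W01D2.8 had 4.75 with WAGO-1 and 0.33 in embryos, F08G2.13 had 3.44 with WAGO-1 and 0.287 in embryos, F08G2.12 had 3.21 with WAGO-1 and 0.363 in embryos, and K10H10.14 had 2.32 with WAGO-1 and 0.177 in embryos. Among antisense reads on members opposite snRNAs, C15F1.14 had 3.55 with WAGO-1 and 0.181 in embryos, F08H9.13 had 2.15 with WAGO-1 and 0.383 in embryos, and T08G5.18 had 2.33 with WAGO-1 and 0.244 in embryos. Y37E3.28, opposite a snoRNA, had 2.83 in L3 animals and 0.091 in embryos. In these 8 genes the falling value is that of the embryo pair. There 88.1% of all tested genes fell in sense, the strand of W01D2.8, F08G2.13, F08G2.12 and K10H10.14. In antisense, the strand of C15F1.14, F08H9.13, T08G5.18 and Y37E3.28, 24.4% fell. F22H10.10, without overlap, went the other way, with an antisense ratio of 38.6 in embryos (216 reads in the mutant and 3 in the control) and 0.148 with HRDE-1 (38 reads in the mutant and 160 in the control). Over all counted reads 4 of these 9 genes still passed 2-fold both ways and with TMM 5 did. The embryo values became 0.784 for F08G2.12, 0.621 for F08G2.13, 0.827 for F08H9.13, 0.712 for W01D2.8 and 0.528 for T08G5.18 over all counted reads, and of these T08G5.18 alone passed with TMM (0.498).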

How the results depend on the processing

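No paired analysis was possible because the labels give no replicate numbers and each genotype has 1 library, and for the same reason no replicate could be left out. Leaving out the gene with most reads, and the scaling of position groups and of genes called both ways, were chosen after seeing the data. Values run in the order total small RNA, embryos, L3 animals, HRDE-1 and WAGO-1. For all antisense ncRNA reads the ratios over all counted reads were 0.718, 1.75, 1.15 and 0.986 in the first 4, after removing only sense rRNA reads 0.783, 0.938 and 1.27 in the first 3, with TMM 0.668, 1.65, 1.43, 1.07 and 1.37, for members without overlap 1.39, 0.864, 4.18, 1.26 and 1.61, and without the leading gene 0.785, 1.09, 1.39, 1.11 and 1.29. For sense reads they were 0.937, 1.34, 0.747 and 1.20 over all counted reads, 1.02, 0.722 and 0.828 without sense rRNA reads, 0.872, 1.27, 0.931, 1.30 and 1.40 with TMM, 0.985, 0.514, 0.802, 1.39 and 1.97 for members without overlap, and 1.02, 0.662, 0.975, 1.17 and 1.34 without the leading gene. The cause was not tested.

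Counts grew when genes with fewer reads were tested. Antisense rises numbered 150, 58, 314, 109 and 125 with 10 or more reads and 247, 58, 436, 109 and 142 with no minimum, and antisense falls 25, 267, 78, 58 and 32, and 40, 421, 109, 140 and 53. Sense rises numbered 123, 60, 427, 77 and 118, and 228, 60, 609, 77 and 145, and sense falls 35, 126, 94, 46 and 50, and 42, 234, 134, 125 and 82. Antisense rises in total small RNA were 23 with TMM, and falls 15 over all counted reads and 33 with TMM. Antisense falls in embryos were 50 over all counted reads. Sense falls were 15, 19 and 36 in total small RNA, embryos and L3 animals over all counted reads, and 18 in total small RNA and 20 in embryos with TMM.

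Position groups crossed 1 as follows. In total small RNA antisense reads opposite snRNAs were 0.934 over all counted reads and 0.869 with TMM, isoforms 0.947 and 0.881, and with TMM alone those opposite snoRNAs 0.981 and on the same strand as another gene 0.968. In embryos antisense reads opposite miRNAs were 1.67 over all counted reads and 1.58 with TMM, isoforms 2.01 and 1.89, and members without overlap 1.87 and 1.76, and sense reads opposite tRNAs were 1.75 and 1.66 and without overlap 1.11 and 1.05. In L3 animals antisense reads opposite tRNAs were 0.95 and isoforms 0.916 over all counted reads, and with HRDE-1 sense isoform reads were 1.03 with TMM. Depth limits genes under 50 reads, and a control of 3 reads or fewer leaves its ratio wide.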

Other observations

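The genes below were chosen after their values were seen. *C38C6.7*, whose transcript name was not found in the annotation, had 0 antisense reads in all 5 control libraries and 7, 40, 54, 6 and 3 antisense reads in the mutant libraries of total small RNA, embryos, L3 animals, HRDE-1 and WAGO-1. Against the floor of 3 reads the L3 value was at least 18.9-fold higher in the mutant.

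B0285.12 and B0284.6 were read mostly in antisense, and ZC155.8 and R144.15 mostly in sense, in total small RNA. In L3 animals the less abundant strand of each was higher in the mutant. Sense reads had ratios of 2.54 on B0285.12 (2358 reads in the mutant and 974 in the control) and 2.34 on B0284.6 (2155 reads in the mutant and 967 in the control), and antisense reads had ratios of 6.18 on ZC155.8 (1083 reads in the mutant and 184 in the control) and 3.81 on R144.15 (2046 reads in the mutant and 564 in the control). The other strand stayed between 0.906 and 0.923 in the same pair.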
